A study of Mus musculus with 2 samples.

Results

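Cxcl1, Cxcl2, Cxcl9, Cxcl10, Cxcl13 and Cxcl16 encode secreted or membrane-anchored chemokines of the CXC family, and their 6 rows of a single-cell count matrix of 25909 genes were chosen by gene name. They are described here by the liver cell type that held their transcripts and by the diet and genotype of the mouse. All 6 were counted in every mouse. The genes, gene lists and cell type markers were named with earlier results of these data known. The all-gene shares set beside their counts are therefore description only. The cells were CD45.2+ CD11b+ liver leukocytes, sorted after exclusion of cells with CD90.2, B220, NK1.1 or SiglecF, and there was 1 mouse in each of 4 groups. Per the methods of the study, the mice put on CDA-HFD were young adult males. The first mouse was an Egr2fl/fl mouse on normal diet (ND), with floxed Egr2 alleles and no Cre. The second was an ND-fed Lyz2Cre/+.Egr2fl/fl mouse. The other two carried the same 2 genotypes and were fed for 7 weeks with CDA-HFD, a high-fat diet without choline, with defined amino acids, that brings on steatohepatitis. All 4 mice therefore carried floxed Egr2, a zinc-finger transcription factor gene, and Lyz2-Cre deletes it in the cells that transcribe Lyz2, which are mainly neutrophils, monocytes and macrophages. With a single mouse per group, no difference between mice had a replicate check, no test was run, and diet or genotype cannot be told apart from differences between individual mice. The intervals given throughout cover counting error only.

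CXC chemokines guide leukocytes that carry the matching receptor. Cxcl1 and Cxcl2 act on Cxcr2, the main chemokine receptor of neutrophils, and are induced through NF-kappaB by microbial products and cytokines such as TNF and IL-1. Cxcl9 and Cxcl10 are induced by interferons and attract T and NK cells through Cxcr3. Cxcl13 attracts B cells through Cxcr5 and is known in the mouse liver from resident macrophages, the Kupffer cells (KCs). Cxcl16 is made as a membrane protein that the proteases Adam10 and Adam17 can release, and its receptor Cxcr6 is found on liver T and NKT cells.

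In GRCm38, 5 of the genes lay on chromosome 5 and 1 on chromosome 11. Cxcl1 (ENSMUSG00000029380, chr5:90891241-90893115, + strand) and Cxcl2 (ENSMUSG00000058427, chr5:90903871-90905938, + strand) were 10.8 kb apart. Cxcl9 (ENSMUSG00000029417, chr5:92321347-92328079, - strand) and Cxcl10 (ENSMUSG00000034855, chr5:92346638-92348889, - strand) were 18.6 kb apart. Cxcl13 (ENSMUSG00000023078) lay at chr5:95956951-95961068 on the + strand, and Cxcl16 (ENSMUSG00000018920) at chr11:70453983-70459984 on the - strand. All 2252 bases of Cxcl10 lay within Art3, a gene of the opposite strand, and 552 bases of Cxcl16 overlapped Zmynd15, also on the opposite strand. Whether the counting used strand was not given in the sources used here, so reads in these overlaps cannot be assigned with certainty. Art3 itself had 0.293 to 1.98 counts per 1000000 counts (CPM) and Zmynd15 17.6 to 26.6 CPM in the 4 mice.

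The promoters of the 2 neighbouring pairs are printed because the members of each pair are compared below. Each line holds the 220 bases from 250 to 31 bases before the RefSeq start site, 5′ to 3′ on the gene's own strand, at chr5:90890995-90891214 for Cxcl1, chr5:90903649-90903868 for Cxcl2, chr5:92328110-92328329 for Cxcl9 and chr5:92348920-92349139 for Cxcl10 (GRCm38.p6). Capitals mark matches, on either strand, of 4 motifs that were searched: the interferon-stimulated response element GAAANNGAAA, the gamma-activated site TTCNNNGAA, the NF-kappaB site, and the Egr site GCGNGGGCG.
Cxcl1: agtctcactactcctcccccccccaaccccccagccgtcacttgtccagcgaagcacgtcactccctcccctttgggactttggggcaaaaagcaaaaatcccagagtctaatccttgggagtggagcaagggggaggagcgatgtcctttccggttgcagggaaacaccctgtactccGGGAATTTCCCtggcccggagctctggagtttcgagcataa
Cxcl2: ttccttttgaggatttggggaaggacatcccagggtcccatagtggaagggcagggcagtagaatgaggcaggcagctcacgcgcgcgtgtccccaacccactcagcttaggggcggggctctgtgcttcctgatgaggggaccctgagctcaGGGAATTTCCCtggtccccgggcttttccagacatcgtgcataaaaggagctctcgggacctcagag
Cxcl9: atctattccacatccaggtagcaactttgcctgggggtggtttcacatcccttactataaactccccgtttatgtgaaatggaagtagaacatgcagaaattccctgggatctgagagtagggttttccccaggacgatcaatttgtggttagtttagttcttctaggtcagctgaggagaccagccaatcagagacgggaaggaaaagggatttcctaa
Cxcl10: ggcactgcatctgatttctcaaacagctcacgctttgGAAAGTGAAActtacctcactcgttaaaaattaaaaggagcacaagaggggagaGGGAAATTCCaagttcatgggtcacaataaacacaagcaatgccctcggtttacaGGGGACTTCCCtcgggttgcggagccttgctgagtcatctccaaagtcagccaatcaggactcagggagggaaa
The capitals in Cxcl1 (71 to 61 bases before the start) and Cxcl2 (97 to 87 bases before it) are 1 NF-kappaB match each, which reads as a match on both strands. Those in Cxcl10 are 1 interferon-stimulated response element 213 to 204 bases before the start and 2 NF-kappaB matches, at 159 to 150 and 104 to 94 bases. The windows of Cxcl9 and Cxcl13 held none of the 4. Among 32851 RefSeq promoters trimmed to the same window, 2.63% held the response element, 6.27% the gamma-activated site, 6.34% the NF-kappaB site and 3.74% the Egr site. Of the 6 genes, 5 matched the promoter table and Cxcl16 did not. These matches describe letters in the window and were not set against binding data.

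The 4 mice gave 1723, 1590, 5885 and 6186 cells in the order of the groups above, with 27840300 to 90124521 counts per mouse and medians of 13168 to 16459 counts per cell. In that order, Egr2 stood at 13.3, 5.85, 49.4 and 18.2 CPM over all cells and at 27.8, 4.88, 62.7 and 3.80 CPM in neutrophil-like cells, lower in the Cre mouse on each diet. Ptprc, which encodes CD45, was counted in 93.1 to 95.5% and Itgam, which encodes CD11b, in 51.0 to 72.8% of cells. Cells were clustered without the chemokine and chemokine receptor genes, and clusters were named from marker lists as "X-like". KC-like cells made up 40.1 and 45.0% of the cells of the ND-fed mice (691 and 716 cells) but only 1 and 13 cells on CDA-HFD. Monocyte-derived macrophage-like cells were 23 and 23 cells on ND and 1276 and 1374 on CDA-HFD, and neutrophil-like cells 107, 194, 913 and 750. T or NK cell-like and B cell-like cells were present in spite of the sort. Because the cell types differed so much between diets, each level is given over all cells of a mouse and then within cell types, and over all cells more cells of a type and more RNA per cell cannot be told apart. Within cell types, ratios are given where both mice had at least 50 cells.

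Over all cells, Cxcl2 was 13-fold higher on CDA-HFD in the Egr2fl/fl mice, while Cxcl13 nearly vanished, Cxcl9 and Cxcl10 were lower, and Cxcl1 and Cxcl16 stayed within 2-fold. For Cxcl1 this rests on 1 cell, which held 249 of 296 counts on ND. Without the highest cell of each mouse its ratio was 10.2. Of the 6 genes, 1 was at least 2-fold higher and 3 were at least 2-fold lower in that comparison, where 4.69% of 10091 genes were past the fold upward and 7.57% downward. In the Cre mice 2 were higher (Cxcl1 and Cxcl2) and 1 lower (Cxcl13), beside 4.61 and 8.13% of 10194 genes. Between genotypes on ND 2 genes were past the fold, Cxcl9 and Cxcl10, both lower in the Cre mouse, beside 0.728% of 8653 genes higher and 0.335% lower. Between genotypes on CDA-HFD 1 gene was past the fold, Cxcl13, higher in the Cre mouse, beside 0.387 and 0.175% of 10860 genes. Cxcl13 had 88 and 191 counts in these mice, together under the 500 asked of the genes in that background, and none of the 5 ligands with enough counts was past the fold. Which cell types held these counts differed from gene to gene, as the plot of source cell types shows.

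**Figure D1:**
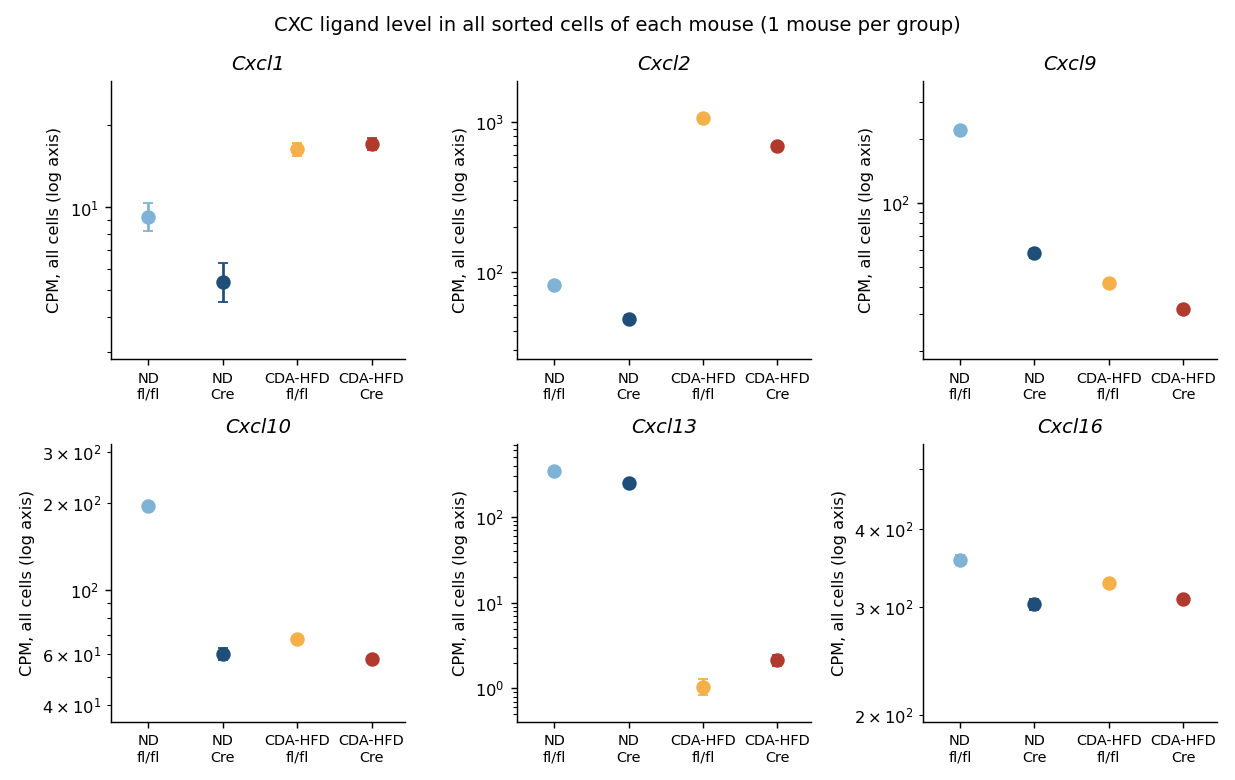
Level of each chemokine gene over all cells of each mouse, in CPM on a log axis, with 95% counting intervals. Cxcl2 reached 1062 and 686 CPM on CDA-HFD against 81.4 and 48.2 CPM on ND, Cxcl13 at 1.03 and 2.12 against 347 and 249 CPM, and Cxcl16 between 303 and 357 CPM in all 4 mice.

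**Figure D2:**
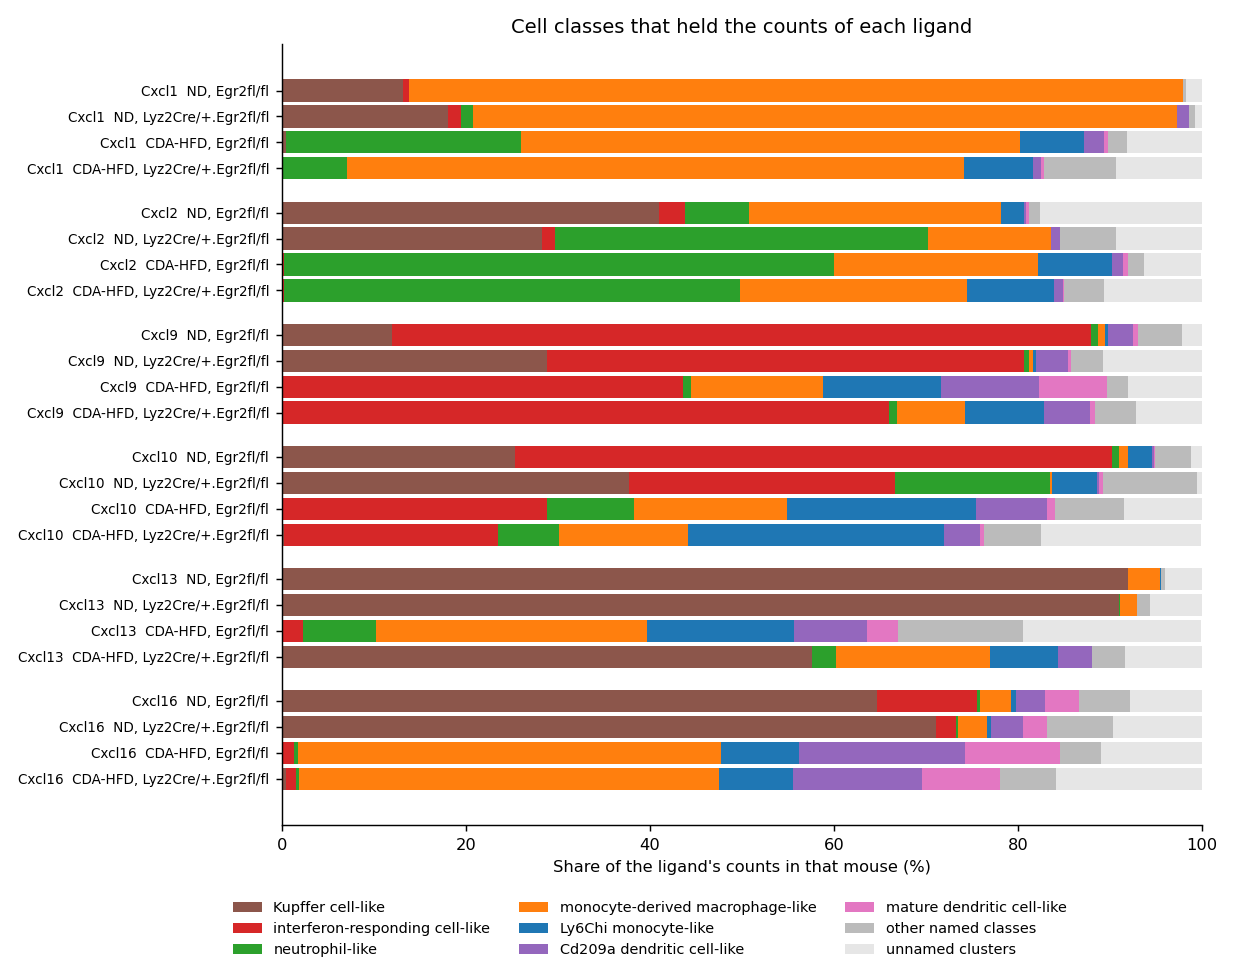
Share of each gene's counts, in percent of the mouse's total for that gene, by the cell type that held them. Neutrophil-like cells held 59.7 and 49.6% of Cxcl2 counts on CDA-HFD, and KC-like cells 92.0 and 91.0% of Cxcl13 counts on ND.

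Cxcl2, a ligand of Cxcr2 that recruits neutrophils, was found mainly in neutrophil-like cells on CDA-HFD. Over all cells it stood at 81.4 CPM (78.3 to 84.6) in the ND-fed Egr2fl/fl mouse, 48.2 CPM (45.7 to 50.9) in the ND-fed Lyz2Cre/+.Egr2fl/fl mouse, 1062 CPM (1055 to 1069) in the CDA-HFD-fed Egr2fl/fl mouse and 686 CPM (681 to 692) in the CDA-HFD-fed Lyz2Cre/+.Egr2fl/fl mouse. The 2 mice on CDA-HFD were above both ND-fed mice, and no 2 intervals overlapped. CDA-HFD over ND, the ratio was 13 (12.5 to 13.6) in the Egr2fl/fl and 14.2 (13.5 to 15.0) in the Cre mice. Cre over Egr2fl/fl, it was 0.592 (0.554 to 0.633) on ND and 0.646 (0.640 to 0.653) on CDA-HFD. Cxcl2 was counted in 4.12, 3.46, 26.9 and 21.2% of cells in the same order, and in 3.60, 3.08, 25.7 and 20.4% after each cell was thinned to 3000 counts. In T or NK cell-like cells, which should hold little of it, the shares were 2.82, 2.13, 5.26 and 5.13%, at medians of 7160 to 8902 counts per cell.

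The matrix held no Cxcl2 value from 1 to 5, while the other 5 genes had values of 1, so low Cxcl2 values were probably recorded as 0 and its levels are lower bounds. If every 0 stood for 0 to 5 counts, the all-cell ratio of CDA-HFD over ND lay between 3.13 and 16.1 in the Egr2fl/fl mice and between 2.12 and 19.8 in the Cre mice. The ratio of Cre over Egr2fl/fl lay between 0.522 and 0.901 on CDA-HFD. On ND it lay between 0.142 and 3.98, so there the zeros leave its direction unset.

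Within neutrophil-like cells Cxcl2 stood at 420 CPM (361 to 486), 662 CPM (608 to 720), 13661 CPM (13546 to 13776) and 8979 CPM (8879 to 9080), in the order Egr2fl/fl then Cre on ND and Egr2fl/fl then Cre on CDA-HFD. It was counted in 12.1 and 9.79% of these cells on ND and in 80.4 and 65.3% on CDA-HFD, at closely similar median depths of 3808 to 4055 counts per cell. The median neutrophil-like cell held 0 CPM in both ND-fed mice, 9288 CPM in the CDA-HFD-fed Egr2fl/fl mouse and 4137 CPM in the CDA-HFD-fed Cre mouse. The class was made mainly of 2 clusters, and their mix moved with the diet. The cluster led by Csf1, Acod1, Il1f9 and G0s2 held 5.61 and 9.28% of neutrophil-like cells on ND and 71.0 and 64.0% on CDA-HFD. The cluster led by Retnlg, Lrg1 and Cstdc4 held 93.5, 89.2, 28.4 and 32.8%. A small cluster led by Ngp and Camp held the other 1 to 24 cells of each mouse. Within the Retnlg cluster alone Cxcl2 still stood at 270 and 174 CPM on ND and 6207 and 3506 CPM on CDA-HFD. Within the Csf1 cluster it stood at 17257 and 13262 CPM on CDA-HFD, and at 3174 and 5467 CPM in the 6 and 18 such cells of the ND-fed mice. The level was therefore higher on CDA-HFD within both of these clusters as well as over the class, although the Csf1 cluster had few cells on ND.

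The neutrophil-like ratio of CDA-HFD over ND was 32.5 (28.1 to 37.8) in the Egr2fl/fl and 13.6 (12.5 to 14.8) in the Cre mice, with zero bounds of 9.05 to 33.1 and 5.20 to 14.1. Cre over Egr2fl/fl, the ratio was 0.657 (0.648 to 0.667) on CDA-HFD, where the zero bounds were 0.647 and 0.685. On ND it was 1.58 (1.33 to 1.88), with zero bounds of 0.439 and 4.11.

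Outside neutrophil-like cells, monocyte-derived macrophage-like cells came next on CDA-HFD by share of the Cxcl2 counts, though not by level. They held Cxcl2 at 662 CPM (653 to 671) in the Egr2fl/fl and 509 CPM (501 to 517) in the Cre mouse, in 29.5 and 25.7% of cells, and 22.2 and 24.6% of each mouse's Cxcl2 counts. The ratio of Cre over Egr2fl/fl there was 0.768 (0.752 to 0.785), with zero bounds of 0.628 and 1.03. Ly6Chi monocyte-like cells, the inflammatory monocytes, held 57.4 CPM on ND and 502 CPM on CDA-HFD in the Egr2fl/fl mice, a ratio of 8.75 (6.88 to 11.3), and no count and 454 CPM in the Cre mice. In the ND-fed Egr2fl/fl mouse 41 of the 67 counts sat in 1 cell, and without the highest cell of each mouse the ratio was 21.5. The zeros allow ratios down to 1.11 and 1.14. By marker gate the ratio was 13.2 in the Egr2fl/fl mice. It was 4.88 in the Cre mice, where the ND-fed mouse held 71.3 CPM by gate. This class too changed its make-up, since its cluster 3 held 90.4 and 92.1% of it on ND and 58.1 and 55.7% on CDA-HFD. Cluster 3 held no Cxcl2 count on ND and 119 and 125 CPM on CDA-HFD, and cluster 7 held 1001 and 844 CPM on CDA-HFD.

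As deposited, the diet ratio of Cxcl2 was above 2 in every class with enough cells, but among these the zero bounds stayed above 2 only in neutrophil-like cells. In the Egr2fl/fl mice it was 28.7 (13.1 to 78.4) in Cd209a dendritic cell-like cells, 23.4 (13 to 47.2) in Ly6Clo monocyte-like cells, 11.5 (8.84 to 15.0) in interferon-responding cell-like cells and 16.4 (7.81 to 41.3) in proliferating cell-like cells. In the Cre mice it was 6.33 (3.67 to 12.0) in Cd209a dendritic cell-like and 5.43 (3.59 to 8.62) in Ly6Clo monocyte-like cells. The lowest ratio that the zeros allow was 1.05 in interferon-responding cell-like cells, 0.249 and 0.139 in Cd209a dendritic cell-like cells of the Egr2fl/fl and Cre mice, 0.422 and 0.326 in Ly6Clo monocyte-like cells, and 0.422 in proliferating cell-like cells. In the ND-fed Egr2fl/fl mouse 1 cell held all 6 counts of the Cd209a dendritic cell-like, all 11 of the Ly6Clo monocyte-like and all 7 of the proliferating cell-like class. Without the highest cell of each mouse the ratios in the Cre mice were 11.9 and 10.5. In the KC-like cells of the ND-fed mice Cxcl2 stood at 58.3 CPM (54.8 to 61.9) and 21.3 CPM (19.2 to 23.6), a ratio of 0.366 (0.324 to 0.411) with bounds of 0.0890 and 3.72, and 0.534 by marker gate. These cells held 41.0 and 28.3% of the Cxcl2 counts on ND.

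Genotype ratios of Cxcl2 farther from 1 were seen in smaller classes on CDA-HFD. In mature dendritic cell-like cells it stood at 209 CPM in the Egr2fl/fl and 25.5 CPM in the Cre mouse, a ratio of 0.122 (0.0889 to 0.164) with bounds of 0.0505 and 1.74, or 0.0747 without the highest cell of each mouse. In proliferating cell-like cells the ratio ran the other way, at 2.68 (2.28 to 3.17) with bounds of 0.822 and 4.60. An unnamed cluster led by Cstdc4, with 42 and 67 cells on CDA-HFD, held 2991 and 2351 CPM.

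Cxcl1, the other Cxcr2 ligand in this set, was sparse. It had 296, 149, 1385 and 1535 counts in all, or 9.24 CPM (8.22 to 10.4), 5.35 CPM (4.53 to 6.28), 16.3 CPM (15.4 to 17.1) and 17.0 CPM (16.2 to 17.9), and it was counted in 18, 15, 103 and 126 cells. Both CDA-HFD-fed mice were above both ND-fed mice, and the intervals of the former 2 overlapped. The ratio of CDA-HFD over ND was 1.76 (1.55 to 2.00) in the Egr2fl/fl and 3.18 (2.69 to 3.79) in the Cre mice. A single monocyte-derived macrophage-like cell held 249 of the 296 counts (84.1%) in the ND-fed Egr2fl/fl mouse, and another held 113 of 149 (75.8%) in the ND-fed Cre mouse. The same 2 cells were the highest for Cxcl2, with 444 and 180 counts. On CDA-HFD the highest cells held 8.23 and 8.34% of the Cxcl1 counts. Without the highest cell of each mouse, the diet ratios were 10.2 and 12.1 and the genotype ratio on ND was 0.881, against 0.579 (0.472 to 0.708) with all cells.

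On CDA-HFD, Cxcl1 came mainly from monocyte-derived macrophage-like cells. The macrophage-like cells held 24.7 CPM (23.0 to 26.6) in the Egr2fl/fl and 34.5 CPM (32.4 to 36.7) in the Cre mouse, in 3.76 and 4.88% of cells, a ratio of 1.40 (1.27 to 1.53), and 54.2 and 67.1% of each mouse's counts. Neutrophil-like cells held 89.5 CPM (80.4 to 99.3) and 31.6 CPM (25.9 to 38.1), in 2.74 and 1.60% of cells, a ratio of 0.353 (0.282 to 0.439), and 25.6 and 7.04% of the counts. In the Cre mouse Ly6Chi monocyte-like cells and the Thbs1 Nr4a2 cluster held 7.49% each. The genotype ratio was thus above 1 in the one class and below 1 in the other, and over all cells it was 1.05 (0.974 to 1.13). No Cxcl1 count was found in the T or NK cell-like cells of any mouse, and at 38 to 71 such cells per mouse this allows shares of up to 4.23 to 7.89%.

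The neutrophil-like cells of the ND-fed Egr2fl/fl mouse had no Cxcl1 count, beside 354 counts on CDA-HFD, and by summed counts the class is taken as more than 2-fold higher on CDA-HFD. As a share of cells with a count, 0 of 107 allows up to 2.80%, beside 2.74% on CDA-HFD, so no difference in that share was detectable. Cells without a count may still hold the transcript. In the Cre mice 2 counts on ND and 108 on CDA-HFD gave a ratio of 13 (3.50 to 108). In proliferating cell-like cells 5 counts in the Egr2fl/fl and 104 in the Cre mouse on CDA-HFD gave a ratio of 15.6 (6.49 to 49.2), but 1 cell held all 5 of the former and 1 cell 86 of the latter.

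Cells with Cxcl1 often held Cxcl2 as well. On ND 6 of 18 and 5 of 15 cells with Cxcl1 also had Cxcl2, and on CDA-HFD 75 of 103 and 88 of 126 did (72.8 and 69.8%), where Cxcl2 was counted in 26.9 and 21.2% of all cells. Among neutrophil-like cells on CDA-HFD 25 of 25 and 9 of 12 cells with Cxcl1 had Cxcl2, beside 80.4 and 65.3% of all neutrophil-like cells. Among macrophage-like cells 72.9 and 79.1% did, beside 29.5 and 25.7% of that class.

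Cxcl9, an interferon-induced ligand of Cxcr3, was highest in the ND-fed Egr2fl/fl mouse. Over all cells it stood at 221 CPM (216 to 226) there, 57.8 CPM (55.0 to 60.7) in the ND-fed Cre mouse, 41.8 CPM (40.5 to 43.2) in the CDA-HFD-fed Egr2fl/fl mouse and 31.5 CPM (30.4 to 32.7) in the CDA-HFD-fed Cre mouse. None of these intervals overlapped. The ratio of CDA-HFD over ND was 0.189 (0.182 to 0.197) in the Egr2fl/fl and 0.545 (0.513 to 0.580) in the Cre mice. Cre over Egr2fl/fl, it was 0.262 (0.248 to 0.276) on ND and 0.754 (0.717 to 0.792) on CDA-HFD. Cxcl9 was counted in 12.5, 5.85, 4.32 and 3.65% of cells, and in 8.76, 3.14, 2.28 and 1.92% after thinning. In T or NK cell-like cells 2.82 and 2.56% had a count in the first and last mouse, and none did in the other two (0 of 47 and 0 of 38 cells, which allows shares of up to 6.38 and 7.89%).

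The leading source of Cxcl9 was the interferon-responding cell-like cluster, which held 75.9, 51.9, 43.6 and 66.0% of its counts and where 7 of 8 interferon markers were raised. The cluster was led by Cxcl9 and Cxcl10 themselves, which were not used to form it, with Ly6i, Gbp2, Gbp5 and Serpina3g. It held 153, 22, 56 and 58 cells, or 8.88% (7.58 to 10.3), 1.38% (0.869 to 2.09), 0.952% (0.720 to 1.23) and 0.938% (0.713 to 1.21) of each mouse's cells. Inside it the summed level of Cxcl9 was similar in all 4 mice, at 1888 CPM (1838 to 1940), 1965 CPM (1834 to 2103), 1752 CPM (1666 to 1842) and 1896 CPM (1811 to 1983). The share of these cells with a count was 72.5, 72.7, 53.6 and 44.8%, and the median cell held 1024 CPM in the ND-fed Egr2fl/fl mouse, 213 CPM in the CDA-HFD-fed Egr2fl/fl mouse and 0 CPM in the CDA-HFD-fed Cre mouse. On CDA-HFD a similar summed level was thus held by a smaller share of the cells. In the mice with at least 50 such cells, the diet ratio inside the cluster was 0.928 (0.876 to 0.982) in the Egr2fl/fl mice and the genotype ratio 1.08 (1.01 to 1.16) on CDA-HFD, against 0.189 and 0.754 over all cells. The mice thus differed in the share of cells in the cluster and in the level outside it, and by less than 2-fold in the summed level inside it. Interferon genes were among those that formed the cluster, so its size reads the same response.

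Outside the cluster Cxcl9 stood at 58.5, 28.2, 23.9 and 10.8 CPM, in descending order as over all cells. On ND, KC-like cells held 46.4 and 26.0 CPM, a ratio of 0.560 (0.499 to 0.628), and 12.0 and 28.8% of the counts. One KC-like cell held 318 of the class's 850 counts in the Egr2fl/fl mouse and another 294 of 463 in the Cre mouse, and without them the ratio was 0.327, past 2-fold. By marker gate it was 0.580, or 0.744 without the interferon-responding cell-like cells, both within 2-fold. Cd209a dendritic cell-like cells held 85.2, 30.9, 26.7 and 10.8 CPM. Their diet ratios were 0.314 (0.263 to 0.375) and 0.349 (0.255 to 0.484), and their genotype ratios 0.363 (0.265 to 0.491) on ND and 0.404 (0.331 to 0.491) on CDA-HFD. Cxcl9 was thus past 2-fold in these dendritic cells in all 4 comparisons when cells were placed by cluster. With each cell placed by its own marker gate, an alternative that has no interferon class and spreads those cells over the others, the diet ratios were 0.165 and 1.88 and the genotype ratios 0.139 and 1.59, so 2 of the 4 turned. By gate but without the interferon-responding cell-like cells they were 0.292, 0.298, 0.350 and 0.358. In the ND-fed Cre mouse 46 of the 56 counts of the class by cluster sat in 1 cell. Without the highest cell of each mouse the diet ratio in the Cre mice turned to 1.67, and the genotype ratio on ND was 0.0907. On CDA-HFD the Cre mouse was also lower in monocyte-derived macrophage-like cells, at 6.97 against 16.8 CPM (0.415, 0.351 to 0.488), and in mature dendritic cell-like cells, at 7.42 against 105 CPM (0.0705, 0.0380 to 0.120). Ly6Chi monocyte-like cells ran against the rest in the diet comparison, with 6.28 CPM on ND and 18.9 CPM on CDA-HFD in the Cre mice, a ratio of 3.01 (1.36 to 8.27) that rests on 6 counts on ND. By marker gate this ratio turned to 0.155, and without the interferon-responding cell-like cells it was 2.50. It was 7.48 without the highest cell of each mouse.

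Cxcl10, the second Cxcr3 ligand, shared the interferon-responding cell-like source but was spread more widely. Over all cells it stood at 195 CPM (190 to 200), 59.9 CPM (57.1 to 62.9), 67.8 CPM (66.0 to 69.5) and 57.6 CPM (56.1 to 59.2), in the order Egr2fl/fl then Cre on ND and Egr2fl/fl then Cre on CDA-HFD. The ND-fed Egr2fl/fl mouse stood apart, and the ND-fed and CDA-HFD-fed Cre mice had overlapping intervals. The diet ratio was 0.348 (0.335 to 0.360) in the Egr2fl/fl and 0.961 (0.909 to 1.02) in the Cre mice, and the genotype ratio 0.308 (0.291 to 0.325) on ND and 0.850 (0.819 to 0.883) on CDA-HFD. Cxcl10 was counted in 14.1, 6.98, 8.53 and 7.81% of cells, and in 8.47, 3.21, 5.06 and 4.56% after thinning. The T or NK cell-like cells had a count in 8.45, 6.38, 5.26 and 5.13% of cells, at medians of 7160 to 8902 counts per cell.

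In the interferon-responding cell-like cluster Cxcl10 stood at 1426 CPM (1383 to 1471), 1133 CPM (1034 to 1239), 1875 CPM (1786 to 1967) and 1218 CPM (1150 to 1289). The cluster held 64.9, 28.9, 28.8 and 23.2% of the Cxcl10 counts, and outside it the level was 75.0, 43.3, 48.8 and 44.7 CPM. Inside it the diet ratio in the Egr2fl/fl mice was 1.31 (1.24 to 1.39), above 1 where the all-cell ratio was 0.348, and the genotype ratio on CDA-HFD was 0.650 (0.603 to 0.700). Of the cells with Cxcl9 in this cluster, 47.7% also held Cxcl10 in the ND-fed Egr2fl/fl mouse and 66.7 and 53.8% on CDA-HFD, where 38.6, 58.9 and 46.6% of all its cells did.

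**Figure D3:**
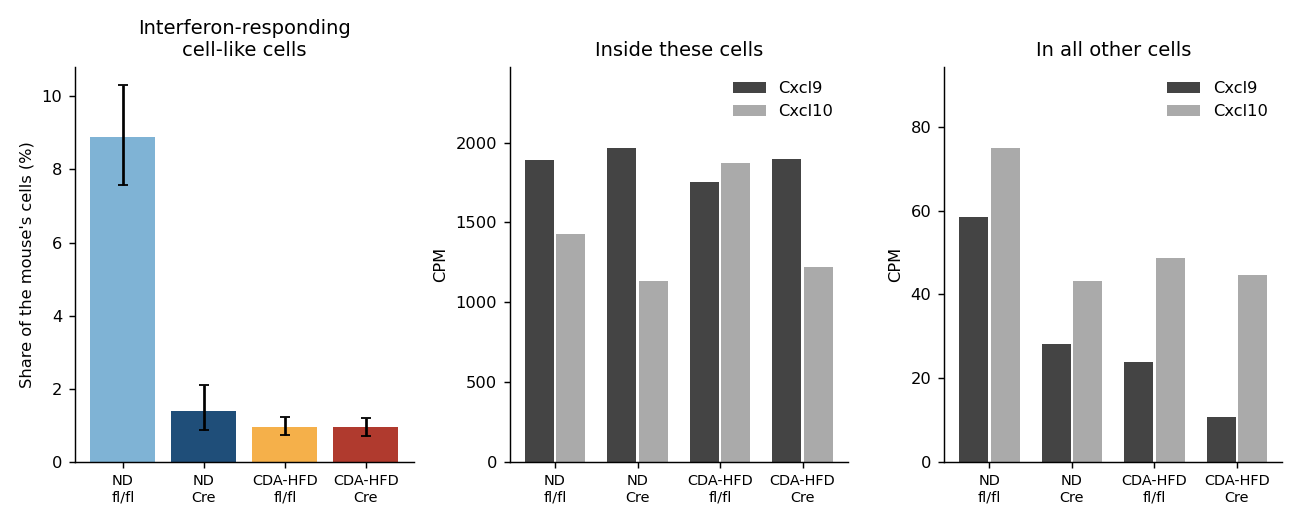
Interferon-responding cell-like cells as a percent of each mouse's cells with exact 95% intervals (left), and Cxcl9 and Cxcl10 in CPM inside that cluster (middle) and in all other cells (right). The cluster was 8.88% of cells in the ND-fed Egr2fl/fl mouse and 0.938 to 1.38% in the others, while Cxcl9 inside it stayed between 1752 and 1965 CPM.

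Other classes held Cxcl10 as well. KC-like cells on ND stood at 86.1 and 35.3 CPM, in 18.2 and 9.08% of cells, a ratio of 0.410 (0.373 to 0.450), or 0.466 by marker gate. Ly6Chi monocyte-like cells stood at 144, 86.9, 81.7 and 112 CPM. In these cells the diet ratio was 0.568 (0.483 to 0.672) in the Egr2fl/fl and 1.28 (1.03 to 1.62) in the Cre mice, and the genotype ratio was 0.604 (0.459 to 0.790) on ND and 1.37 (1.26 to 1.48) on CDA-HFD. By marker gate the diet ratios were 0.0726 and 0.552, both below 1, and the genotype ratios 0.162 and 1.23. On ND 87 of the 168 counts of the class sat in 1 cell of the Egr2fl/fl mouse and 78 of 83 in 1 cell of the Cre mouse. Without the highest cell of each mouse the diet ratios were 1.05 and 18.4 and the genotype ratio on ND was 0.0758. Cluster 3, which held most Ly6Chi monocyte-like cells on ND, stood at 116 and 94.5 CPM on ND and 17.1 and 46.0 CPM on CDA-HFD, and cluster 7 at 166 and 189 CPM on CDA-HFD. In Cd209a dendritic cell-like cells placed by cluster, the diet ratios were 5.89 (3.34 to 11.5) and 13.7 (3.75 to 114), resting on 12 and 2 counts on ND. By marker gate the first was 0.766, or 1.06 without the interferon-responding cell-like cells, and the second 27.6, or 7.44. The 2 ratios by cluster were 9.65 and 23.0 without the highest cell of each mouse. By gate 2.42 to 6.88% of these cells had a count.

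In neutrophil-like cells Cxcl10 stood at 111, 344, 138 and 100 CPM, but few cells held it on ND. There 46 of 48 counts sat in 1 cell of the Egr2fl/fl mouse and 278 of 282 in 3 cells of the Cre mouse, all in the Csf1 cluster. One of them, with 256 counts, made up 15.3% of all Cxcl10 counts of that mouse. On CDA-HFD 7.45 and 7.20% of neutrophil-like cells had a count. The diet ratios, 1.24 and 0.292, became 24.2 and 2.61 without the highest neutrophil-like cell of each mouse, so the second turned. The genotype ratio on ND was 3.09, or 6.81 without those cells and 1.94 by marker gate.

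Cxcl13, the B cell chemoattractant, was almost entirely a transcript of KC-like cells and of ND-fed mice. Over all cells it stood at 347 CPM (341 to 354) in the ND-fed Egr2fl/fl mouse, 249 CPM (243 to 254) in the ND-fed Cre mouse, 1.03 CPM (0.828 to 1.27) in the CDA-HFD-fed Egr2fl/fl mouse and 2.12 CPM (1.83 to 2.44) in the CDA-HFD-fed Cre mouse. It was counted in 24.0 and 21.6% of cells on ND and in 0.952 and 0.970% on CDA-HFD, beside 1 of the T or NK cell-like cells in all 4 mice. The ratio of CDA-HFD over ND was 0.00297 (0.00238 to 0.00367) in the Egr2fl/fl and 0.00853 (0.00735 to 0.00985) in the Cre mice.

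On ND the KC-like cells held 558 CPM (548 to 569) in the Egr2fl/fl and 353 CPM (345 to 362) in the Cre mouse. They made up 92.0 and 91.0% of the Cxcl13 counts, and 50.8 and 41.8% of them had a count. The ratio of Cre over Egr2fl/fl within them was 0.632 (0.613 to 0.653), beside 0.716 (0.695 to 0.738) over all cells. A cluster led by the hepatocyte genes Mup7 and Mup13, with 69 and 113 cells, also held it. In this cluster 8 of 9 KC markers were raised, and the KC gene Fcna was among its leading genes. It held Cxcl13 with intervals of 863 to 1044 CPM and 469 to 573 CPM, and 3.92 and 5.65% of the counts. Since the CDA-HFD-fed mice had 1 and 13 KC-like cells, the Cxcl13 level in KC-like cells cannot be compared between the diets. In the CDA-HFD-fed Cre mouse those 13 cells held 110 of the 191 counts (57.6%), and 1 cell held 83 (43.5%). The macrophage-like cells of the CDA-HFD-fed mice held 0.856 and 1.07 CPM. The genotype ratio on CDA-HFD was 2.05 (1.59 to 2.67) with all cells and 1.22 without the highest cell of each mouse.

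Cxcl16 was the most evenly distributed member. It stood at 357 CPM (350 to 363), 303 CPM (296 to 309), 327 CPM (323 to 331) and 308 CPM (305 to 312) over all cells, in the order Egr2fl/fl then Cre on ND and Egr2fl/fl then Cre on CDA-HFD. The 2 Cre mice had overlapping intervals, and all 4 ratios were within 2-fold, at 0.917 (0.897 to 0.937) and 1.02 (0.993 to 1.04) for diet and 0.849 (0.825 to 0.873) and 0.943 (0.927 to 0.959) for genotype. It was counted in 66.2, 64.8, 55.1 and 55.9% of cells, and in 45.0, 40.8, 36.3 and 35.5% after thinning. No single cell held more than 0.629% of its counts.

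The even level came from different cells on the 2 diets. On ND, KC-like cells held 403 CPM (394 to 412) and 336 CPM (328 to 345), with a count in 95.7 and 92.6% of cells, and 64.7 and 71.1% of all Cxcl16 counts. On CDA-HFD, monocyte-derived macrophage-like cells held 422 CPM (414 to 429) and 424 CPM (417 to 432), with a count in 90% and 88.6% of cells, and 46.0 and 45.6% of the counts. The genotype ratio was 0.835 (0.806 to 0.864) in the former and 1.01 (0.982 to 1.03) in the latter. In both settings the main macrophage-like class thus carried the gene in nearly all of its cells.

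Mature dendritic cell-like cells had the highest class level of Cxcl16 on CDA-HFD, at 1145 and 1239 CPM, and 10.3 and 8.41% of the counts. A cluster led by Ch25h and Mmp13 held 1103 and 869 CPM on ND. Several monocytic and dendritic classes were higher on CDA-HFD. Ly6Chi monocyte-like cells went from 53.1 to 162 CPM in the Egr2fl/fl mice, a ratio of 3.05 (2.37 to 3.99), and from 41.9 to 172 CPM in the Cre mice, a ratio of 4.11 (3.01 to 5.76). By marker gate these ratios were 1.72 and 1.34, and without the interferon-responding cell-like cells 5.52 and 3.03. Their cluster 3 stood at 14.2 and 28.5 CPM on ND and 36.0 and 25.8 CPM on CDA-HFD, while cluster 7, found mainly on CDA-HFD, stood at 326 and 345 CPM. Cd209a dendritic cell-like cells had ratios of 2.28 (2.04 to 2.54), or 1.89 by marker gate, and 1.87 (1.65 to 2.11), or 2.09 without the highest cell of each mouse. Ly6Clo monocyte-like cells had ratios of 5.19 (2.73 to 11.1) in the Egr2fl/fl mice and 1.39 in the Cre mice, or 2.95 and 2.06 by marker gate, which puts the second past 2-fold. Neutrophil-like cells were low for Cxcl16, at 78.9, 21.9, 28.8 and 27.8 CPM with a count in 4.12 to 8.41% of cells, and their diet ratio in the Egr2fl/fl mice was 0.365, or 0.573 by marker gate. T or NK cell-like cells, which were more deeply counted, had a count in 15.5 to 31.6% of cells.

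**Figure D4:**
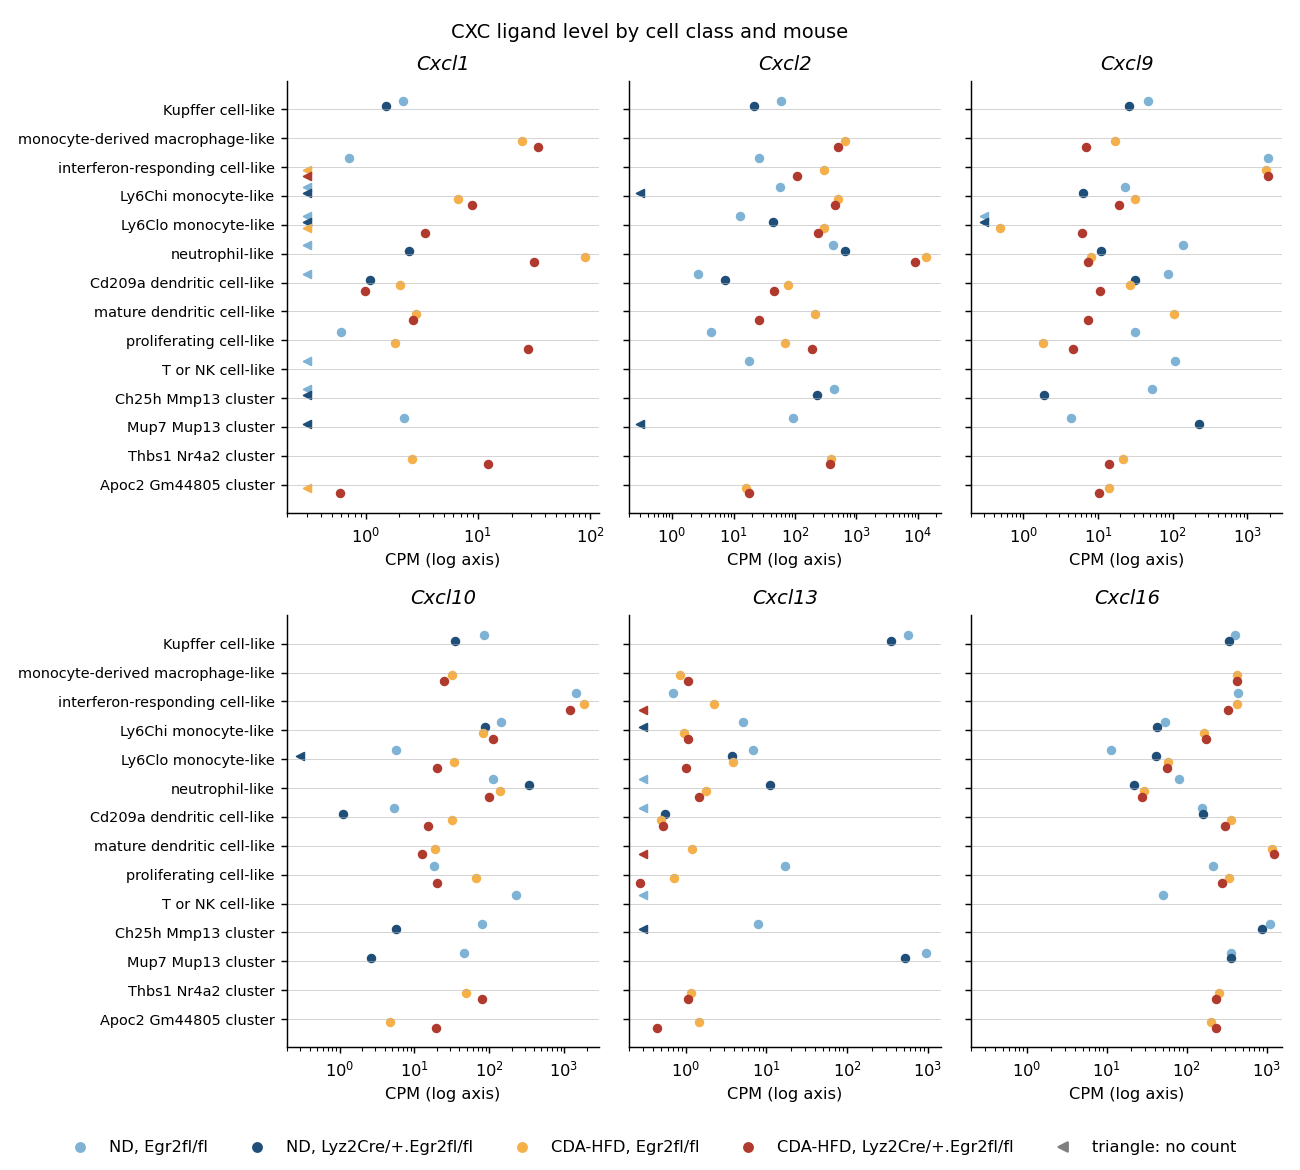
Level of each gene, in CPM on a log axis of its own, by cell type and mouse, for classes with at least 50 cells in that mouse (triangles mark classes with no count). Cxcl2 in neutrophil-like cells on CDA-HFD (13661 and 8979 CPM), Cxcl9 in interferon-responding cell-like cells (1752 to 1896 CPM) and Cxcl13 in KC-like cells on ND (558 and 353 CPM) stand out from the other named classes.

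Within cell types, of 21 gene and class pairs that could be compared between diets in the Egr2fl/fl mice, 12 were at least 2-fold higher and 2 at least 2-fold lower on CDA-HFD. Over all genes, 7.06% of 34267 such pairs were higher and 4.37% lower. In the Cre mice 9 of 15 pairs were higher and 2 lower, beside 7.26 and 3.47% of 24810 pairs. These counts include pairs with no count on ND and a lower end of the ratio's interval above 2, which were Cxcl1 in neutrophil-like cells in the former and Cxcl1 and Cxcl2 in Ly6Chi monocyte-like cells in the latter. Cxcl2 and Cxcl16 gave most of the higher pairs. The Cxcl2 pairs are counted as deposited. Outside neutrophil-like cells the values of 0 allow lowest Cxcl2 diet ratios of 0.139 to 1.14, all below 2. Between genotypes on ND 1 of 11 pairs was higher and 3 lower in the Cre mouse, beside 0.911 and 0.916% of 22060 pairs. On CDA-HFD 2 of 32 were higher and 8 lower, beside 0.759 and 0.692% of 55197. The lower pairs on CDA-HFD were Cxcl2 in interferon-responding (0.361, 0.286 to 0.453, with zero bounds of 0.187 and 1.23) and mature dendritic cell-like cells, Cxcl9 in Cd209a dendritic, mature dendritic and macrophage-like cells, Cxcl10 in Cd209a dendritic (0.484, 0.408 to 0.573, but 0.895 by marker gate and 0.594 without the highest cells) and proliferating cell-like cells (0.302, 0.227 to 0.398), and Cxcl1 in neutrophil-like cells. Pairs of 1 gene in several classes of the same 2 mice share those mice and are not replicates.

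**Figure D5:**
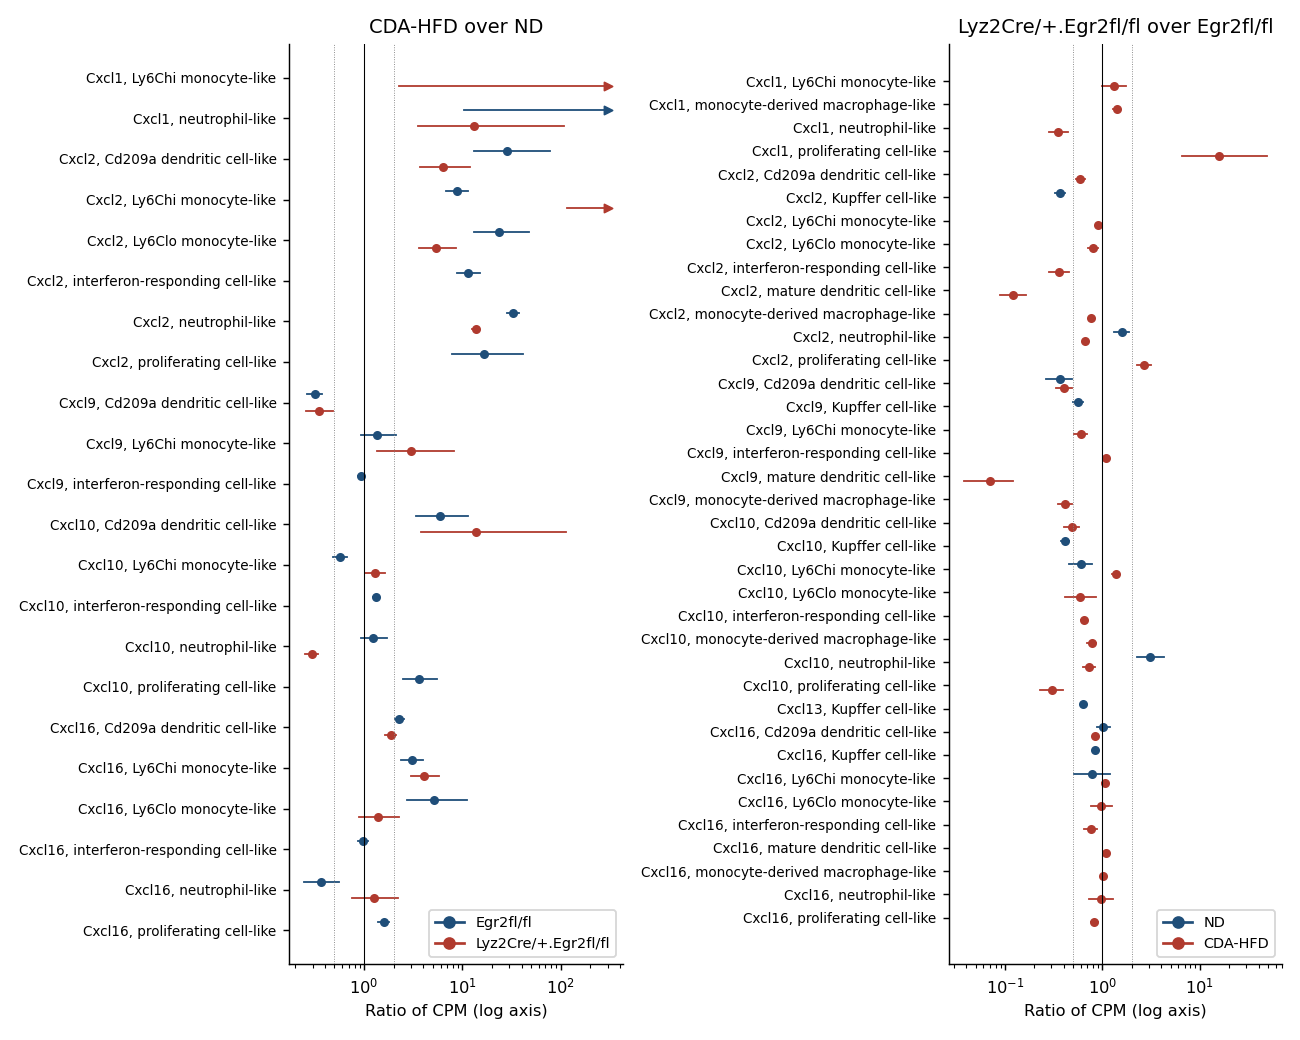
Ratio of each gene's level within a cell type, CDA-HFD over ND (left) and Cre over Egr2fl/fl (right), on a log axis with 95% counting intervals. Dotted lines mark 2-fold, and arrows, which start at the lower end of the interval, mark classes whose first mouse had no count. As deposited, Cxcl2 lies beyond the upper line in every class on the left (5.43 to 32.5). Its values of 0 allow ratios below 2 in every class but neutrophil-like cells. Cxcl9 in Cd209a dendritic cell-like cells placed by cluster lies beyond the lower line in all 4 comparisons (0.314 to 0.404). Of these, 2 turn when cells are placed by marker gate and 1 without the highest cell of each mouse.

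The receptors of these ligands were counted in the same samples, each in few cell types. Cxcr2, the receptor of Cxcl1 and Cxcl2, stood at 43.0, 89.7, 64.3 and 60.5 CPM, and neutrophil-like cells held 79.2 to 86.5% of its counts. Within these cells Cxcr2 was lower on CDA-HFD, at 1166 and 1322 CPM against 2530 and 2634 CPM on ND. The mix of clusters moved with the diet there, and within the Retnlg cluster Cxcr2 stood at 2581 and 2819 CPM on ND and 1585 and 1850 CPM on CDA-HFD. Cxcr3, the receptor of Cxcl9 and Cxcl10, stood at 12.7, 10.2, 2.59 and 4.14 CPM, with diet ratios of 0.204 and 0.404, and its levels were high in T or NK cell-like cells (25.3 to 135 CPM) and in cDC1-like cells (57.3 to 91.2 CPM). Cxcr5, the receptor of Cxcl13, stood at 0.493 to 0.988 CPM, and B cell-like cells held 36.0 to 82.8% of its counts. Cxcr6, the receptor of Cxcl16, stood at 3.68, 3.95, 0.845 and 0.677 CPM, and T or NK cell-like cells held 88.5 to 100% of it. The sort excluded T, B and NK cells, which carry Cxcr3, Cxcr5 and Cxcr6, so these all-cell levels describe what passed the gate. Cxcr4, the receptor of a ligand outside this set, had diet ratios of 7.84 and 6.40. Of the 8 receptor genes listed, 3 had enough counts for the diet comparison in the Egr2fl/fl mice, and 1 was higher and 1 lower, beside 4.69 and 7.57% of all genes.

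Of 8 other CXC ligand genes in the matrix, 3 had at least 500 counts in the diet comparisons and 2 of them were higher on CDA-HFD in each genotype, beside 4.69 and 4.61% of all genes. Cxcl14 stood at 20.7, 23.5, 61.6 and 50.5 CPM, with ratios of 2.98 and 2.15, and was found in macrophage-like cells on CDA-HFD (143 and 116 CPM). Cxcl3, another Cxcr2 ligand, stood at 1.78, 1.90, 11.3 and 9.88 CPM, with ratios of 6.34 and 5.19 and 109 and 101 CPM in the neutrophil-like cells of the CDA-HFD-fed mice. Pf4, which encodes CXCL4, stood at 89.4, 208, 158 and 160 CPM, and its genotype ratio on ND was 2.32. Cxcl11, the third Cxcr3 ligand, stood at 6.46, 1.36, 1.56 and 1.48 CPM, highest in the ND-fed Egr2fl/fl mouse as for Cxcl9 and Cxcl10.

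Many genes known to answer interferon-gamma were lower on CDA-HFD, as Cxcl9 and Cxcl10 were in the Egr2fl/fl mice. Of the 18 genes listed, 16 had enough counts. In the Egr2fl/fl mice 12 of 16 were at least 2-fold lower and none higher, beside 7.57% of all genes lower, with a median ratio of 0.383 beside 0.917 over all genes, and in the Cre mice 7 of 16 were lower, beside 8.13%, with a median of 0.578 beside 0.912. The GTPase gene Gbp5 had ratios of 0.173 and 0.391, and Iigp1 of 0.0422 and 0.0830. Between genotypes on ND 4 of 16 were lower in the Cre mouse (Gbp4 0.454, Gbp5 0.397, Socs1 0.457 and Ciita 0.460), beside 0.335% of all genes, with a median of 0.621 beside 1.03, and on CDA-HFD none of the list was past 2-fold, with a median of 0.928 beside 1.02.

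Of 16 NF-kappaB target genes, 8 were at least 2-fold higher and 1 lower on CDA-HFD in the Egr2fl/fl mice. Of all genes 4.69% were higher and 7.57% lower there, and the list had a median of 2.03 beside 0.917. In the Cre mice 9 were higher and 1 lower, beside 4.61% higher and 8.13% lower, with a median of 2.44 beside 0.912. Ptgs2, which encodes cyclooxygenase-2, had ratios of 8.31 and 11.0, Tnfaip3 3.63 and 3.87, and Tnf 3.46 and 2.95, while Il6 ran the other way at 0.212 and 0.230. None was past 2-fold between genotypes, beside 0.728% of all genes higher and 0.335% lower on ND and 0.387 and 0.175% on CDA-HFD. The medians were 0.757 beside 1.03 on ND and 0.849 beside 1.02 on CDA-HFD. The proteases that can release Cxcl16 were level across the mice, with Adam10 at 250 to 300 CPM and Adam17 at 129 to 152 CPM. Of the 4 proteases listed, 1 was past 2-fold in any comparison, Mmp9, with a genotype ratio of 2.31 on ND, where 0.728% of all genes were higher.

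Over the 41 groups of 1 class in 1 mouse with at least 50 cells, the 6 genes did not follow each other closely. Spearman's rho of their log2 CPM was 0.64 for Cxcl1 with Cxcl2, 0.44 for Cxcl2 with Cxcl10 and 0.40 for Cxcl9 with Cxcl10, and the other pairs lay between -0.21 and 0.28. These groups share mice, library and depth, and the values describe them without a test. Among 11840 genes, those closest in pattern were Dusp1 (0.88), Ccrl2 (0.84) and Ets2 (0.83) for Cxcl2, and Tmcc3 (0.85), Zmynd15 (0.85) and Mt1 (0.84) for Cxcl16, of which Zmynd15 overlaps Cxcl16. For Cxcl1 they were Gla (0.80), Nqo1 (0.80) and Gdf15 (0.77). For Cxcl9 they were Serpina3g (0.69), Tmem123 (0.61) and Gbp4 (0.58), for Cxcl10 Morrbid (0.67), Casp4 (0.67) and Pgs1 (0.64), and for Cxcl13 Nxt2 (0.68), Treml4 (0.64) and Gm20589 (0.64).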

How the data were processed

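Single-cell RNA libraries (BD Rhapsody with TAS-Seq amplification) of liver cells from 4 mice, pooled after hashtag staining, were used as the gene-by-cell matrix of counts that the authors deposited, mapped to GRCm38. Per the labels, the submitters used Seurat 4.1.1 in R 4.2.1. The mouse of each cell came from the deposited hashtag assignment. Of 16786 barcodes, 1392 that the authors had named doublets (8.29%) and 10 cells above 25% mitochondrial counts were left out, no barcode was shared between mice, and 7 hashtag columns were not used. The 15384 cells kept had at least 3115 counts each. Whether counts are reads or molecules was not given in the sources used here, so intervals and floors cover counting error only.

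Cells were clustered with Seurat 5.3.0 in R 4.3.3 (5054 variable genes without 45 chemokine and receptor genes, 57 principal components, resolution 1.0). The 25 clusters were named as "X-like" from marker lists, giving 14 named classes and 6 unnamed clusters (2874 cells), which are called by their leading genes. A cell type rebuilt this way can differ from that of the study.

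Counts were summed per mouse or per class and mouse and scaled to 1000000 total counts (CPM). Exact 95% Poisson intervals were given for levels, exact binomial intervals for ratios and Clopper-Pearson intervals for shares of cells. With 1 mouse per group no test was run. A ratio of at least 2 or at most 0.5 was called past the fold, with at least 500 counts over both mice for all genes and lists, and within classes at least 100 counts and 50 cells in each mouse. Cells were thinned to 3000 counts for shares, which left out no cell. The scripts were tested on simulated data. Versions were numpy 2.4.6, scipy 1.17.1, pandas 2.3.3 and edgeR 4.0.16 (scaling factors only). Genes named were the 6 ligands, the listed receptors and other ligands, examples from the lists counted, and for each ligand the 3 genes with the most similar profile among those with at least 500 counts. The ligands, lists and markers were chosen with earlier results of these data known.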

Additional observations from a re-analysis of the deposited data

Results flagged for a closer look

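In 5 cases a ratio lay on opposite sides of 1 in the 2 settings of the same comparison with neither 95% counting interval reaching 1. With 1 mouse per group, none of these differences was tested.

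Cxcl10 in Ly6Chi monocyte-like cells gave 2 of them. Its ratio of CDA-HFD over ND was 1.28 in the Lyz2Cre/+.Egr2fl/fl mice and 0.568 in the Egr2fl/fl mice. Its ratio of Lyz2Cre/+.Egr2fl/fl over Egr2fl/fl was 1.37 on CDA-HFD and 0.604 on ND. Both rest on the same 4 levels. Cluster 7 was 9.57 and 7.89% of the class on ND and 41.9 and 44.3% on CDA-HFD. On CDA-HFD Cxcl10 stood at 166 and 189 CPM in it, beside 17.1 and 46.0 CPM in cluster 3. On ND 1 cell held 87 of 168 counts in the Egr2fl/fl mouse, and 1 cell 78 of 83 in the Lyz2Cre/+.Egr2fl/fl mouse. Without the highest cell of each mouse the diet ratios were 18.4 and 1.05, no longer on opposite sides of 1. The genotype ratios were then 1.33 and 0.0758. With each cell placed by its marker gate the diet ratios were 0.552 and 0.0726, on the same side of 1, while the genotype ratios were 1.23 and 0.162. By gate without the interferon-responding cell-like cells, the diet ratios were 0.937 and 0.428 and the genotype ratios 1.86 and 0.849.

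In neutrophil-like cells the ratio of Lyz2Cre/+.Egr2fl/fl over Egr2fl/fl for Cxcl2 was 0.657 on CDA-HFD and 1.58 on ND, where the values of 0 allow 0.439 to 4.11 and the ratio by marker gate was 0.944. For Cxcl10 in the same cells it was 0.728 on CDA-HFD and 3.09 on ND, where 1 and 3 cells held 46 of 48 and 278 of 282 counts.

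For Cxcl13 over all cells the ratio was 2.05 on CDA-HFD and 0.716 on ND. On CDA-HFD 1 cell of the Lyz2Cre/+.Egr2fl/fl mouse held 83 of its 191 counts.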

How the results depend on the processing

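Of 194 all-cell ratios of the 6 genes computed under another setting, 105 moved by less than their counting interval, 88 moved further, and among those past 2-fold 1 changed direction, that of Cxcl13 between genotypes on CDA-HFD, at 0.968 as a mean over cells. This ratio was 1.45 where a cell's own hashtag had at least 90% of its hashtag counts and 1.22 without the highest cell of each mouse. Accordingly the count of genes past 2-fold between genotypes on CDA-HFD, 1 in the report, was 0 as a mean over cells, at 90% own hashtag, without the highest cells, without cells that pass 2 or more marker gates, and among genes with at least 500 counts. Without the interferon-responding cell-like cells, an alternative chosen after seeing the data, it was 2, and the count between genotypes on ND was 1 in place of 2. Without them the Cxcl9 ratio was 0.408 and 0.384 for diet and 0.482 and 0.454 for genotype, and Cxcl10 stood at 0.650 for diet in the Egr2fl/fl mice and 0.577 for genotype on ND. Within classes the count past 2-fold between diets ranged from 15 to 29, against 25 of 36, and was lowest at 90% own hashtag, at 15 of 19 pairs. Between genotypes it ranged from 12 to 20, against 14 of 43. With each cell placed by its own marker gate, the leading source was the same in 15 of 24 cases of gene and mouse, and of the 25 and 14 within-class pairs past 2-fold 28 had a ratio by gate, of which 24 kept their direction and 17 stayed past 2-fold. The 4 that turned were Cxcl9 in Cd209a dendritic cell-like cells (1.88 for diet in the Cre mice and 1.59 for genotype on CDA-HFD) and in Ly6Chi monocyte-like cells (0.155 for diet in the Cre mice), and Cxcl10 in Cd209a dendritic cell-like cells (0.766 for diet in the Egr2fl/fl mice). By gate without the interferon-responding cell-like cells, also chosen after seeing the data, all 28 kept their direction and 25 stayed past 2-fold. Pairs with no count in the first mouse or in a class with no gate could not be compared in this way. Without the highest cell of the class in each mouse, again chosen after seeing the data, 32 of these pairs had a ratio, of which 30 kept their direction and 29 stayed past 2-fold, and 4 had no count left in the first mouse. The 2 that turned were the diet ratios in the Cre mice of Cxcl9 in Cd209a dendritic cell-like cells (1.67) and of Cxcl10 in neutrophil-like cells (2.61). Under all settings the Cxcl2 ratio of CDA-HFD over ND ranged from 3.87 to 27.1 in the Egr2fl/fl and from 2.95 to 16.3 in the Cre mice, and that of Cxcl1 in the Egr2fl/fl mice from 1.23 to 10.2. The Cxcl2 genotype ratio on ND ranged from 0.556 to 1.15, the Cxcl1 genotype ratio on CDA-HFD from 0.655 to 1.33 and the Cxcl10 diet ratio in the Cre mice from 0.818 to 1.08, so these had no set direction. No paired analysis was possible because each group was 1 mouse.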

Other observations

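The marker gates passed by the interferon-responding cell-like cells differed between the mice, which had 153, 22, 56 and 58 such cells in the order Egr2fl/fl then Lyz2Cre/+.Egr2fl/fl on ND and the same 2 genotypes on CDA-HFD. Of these cells 21.6, 36.4, 44.6 and 55.2% passed the Ly6Chi monocyte gate, and 58.2, 59.1, 35.7 and 32.8% passed no gate, so the lineage of the latter is not known. Over all cells of a mouse, cells that passed no gate held 47.9, 34.9, 53.5 and 34.8% of the Cxcl9 counts and 22.2, 22.8, 24.9 and 20.8% of the Cxcl10 counts. Cells in the Ly6Chi gate held 15.5, 17.8, 8.02 and 25% of the Cxcl9 and 36.6, 14.2, 24.0 and 40.2% of the Cxcl10 counts. The KC gate held 15.5 and 39.4% of the Cxcl9 and 25.7 and 44.6% of the Cxcl10 counts on ND.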
